A study of Mus musculus with 36 samples.

Results

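The 10 genes described here are the Notch ligands Dll1, Dll4, Jag1 and Jag2, the receptors Notch1, Notch2 and Notch3, and the transcriptional targets Hes1, Hey1 and Heyl. They were taken by gene symbol from the 46893 features of a count table of mouse gastrocnemius, the large calf muscle. All 10 had a mean count of 25 or more, the minimum for testing, in each comparison. The table held 36 libraries, 1 per mouse, in 6 groups of 6 male wild-type C57BL/6 mice that entered the study at 3 to 4 weeks of age and were killed after 12 weeks. NFD-C mice were sedentary on the normal-fat AIN93G diet. HFD-C mice were sedentary on the high-fat diet. The 4 other groups ate the high-fat diet and ran on an in-cage wheel: HFD-U ran without restriction and covered 8.3 km/day on average, and wheel brakes held HFD-25% to 2.1, HFD-50% to 4.2 and HFD-75% to 6.3 km/day. Each library is whole muscle, so the mice differ in diet and running while every group shares strain, sex and genotype.

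Notch signalling passes between touching cells. A Delta-like or Jagged ligand on one cell binds a Notch receptor on its neighbour, proteases release the receptor's intracellular domain, and that domain joins the DNA-binding protein RBPJ to switch on Hes and Hey repressor genes. In blood vessels DLL4 and NOTCH1 set the balance between tip and stalk cells of a sprout and HEY1 takes part in arterial identity, NOTCH3 is a receptor of the mural cells around the vessel, and in muscle itself DLL1 and Notch receptors hold satellite cells, the muscle stem cells, in an undifferentiated state.

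The data showed small and partly opposed differences. Dll4 was higher in the 3 groups held to a set distance than in HFD-C, by 0.45 to 1.06 on the log2 scale. Its differences in HFD-U, 0.35, and in sedentary NFD-C mice, 0.41, were near the lowest of these but missed the p threshold used here. Hey1 was higher in HFD-25% and HFD-50%. Dll1 was lower in HFD-U, without overlap between its mice and HFD-C. A gene is termed called here when its unadjusted p did not exceed 0.05. No member passed 0.05 after adjustment over all genes tested in the main fits, a limit passed by 0.00820% of genes in HFD-25% against HFD-C, 0.00844% in HFD-U against HFD-50%, 0.300% for all running mice, 1.45% over the 6 groups, 0.683% over running distance and 0.00% elsewhere.

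In mouse assembly GRCm39, whose coordinates the count table carries, Dll4 lies on chromosome 2 from 119156265 to 119166147 on the plus strand, Notch1 on chromosome 2 from 26347914 to 26393834 on the minus strand, Dll1 on chromosome 17 from 15587616 to 15597275 on the minus strand, and Hey1 on chromosome 3 from 8728419 to 8732098 on the minus strand. Counts are summed over the exons of each gene. Long non-coding RNAs on the opposite strand overlap Dll1, Dll4, Notch1, Notch2 and Notch3, and because the strand setting of the counting is not given in the sources used here, reads of a pair could not be told apart. The overlapping non-coding genes had mean counts of 1.08 to 9.94 per library, against 68.6 to 326.9 for the 5 members.

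The 250 bases before the annotated start are shown for Dll4 and Notch1, an endothelial ligand and receptor with r = 0.648 across mice (0.696 for Jag1 and Notch3, the highest of the ligand and receptor pairs), as RefSeq gives them on GRCm38.p6. Dll4 is chr2:119325534-119325783 on the plus strand and Notch1 is chr2:26503823-26504072 on the minus strand, both 5′ to 3′. Capitals mark the GC box GGGCGG on either strand, a binding motif of SP and KLF factors.
Dll4: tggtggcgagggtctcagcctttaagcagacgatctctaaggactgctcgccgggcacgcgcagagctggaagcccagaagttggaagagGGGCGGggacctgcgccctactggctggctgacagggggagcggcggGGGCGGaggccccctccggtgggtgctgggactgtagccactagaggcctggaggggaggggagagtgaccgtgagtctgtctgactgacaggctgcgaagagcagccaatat
Notch1: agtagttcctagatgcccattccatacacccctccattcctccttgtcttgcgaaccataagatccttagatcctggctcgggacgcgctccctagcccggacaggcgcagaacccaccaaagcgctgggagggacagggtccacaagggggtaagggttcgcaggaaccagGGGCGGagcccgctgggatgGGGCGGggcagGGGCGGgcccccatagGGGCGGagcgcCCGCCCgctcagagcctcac
The GC box occurred at 2 places in the Dll4 window and at 5 in the Notch1 window, and 32.7% of 32851 promoter windows of this length held it. GC content was 65.6% and 66% in these windows. The RBPJ core TGGGAA on either strand was in none of the 8 windows matched to 7 members and in 21.6% of all windows. The E-box CACGTG, a HES and HEY type of site, was also in none of the 8 and in 6.02% of all. Such matches describe letters in a short window. The first bases of the Dll4 window also lie in an exon of Gm14207 on the opposite strand. Windows were not matched for Hes1, Hey1 and Heyl.

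Per length of gene model, Hes1 had the highest level of the members, at 8.5 ± 2.57 CPM, counts normalised to library size, per kilobase (SD, n = 36). Jag2 followed at 5.8 ± 1.07. Dll4 (2.5 ± 1.07), Notch3 (2.23 ± 0.711), Hey1 (2.09 ± 0.828) and Heyl (1.75 ± 0.429) formed a middle range with overlapping spreads. Notch1 (1.29 ± 0.462), Notch2 (1.04 ± 0.197), Jag1 (0.984 ± 0.22) and Dll1 (0.927 ± 0.34) were lowest on this scale. Among all tested genes the level of Dll1 stood at the 16.7th percentile and that of Hes1 at the 69.5th. Counts per library went from 23 to 147 for Dll1 and from 32 to 192 for Hey1, so counting error is largest for these members.

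Total counts were 13060090 to 27981702 per library. One property separated libraries before any comparison: transcripts linked to ribosomal RNA took 2.01% to 3.8% of counts in all NFD-C libraries and in HFD-C replicates 1 to 4, but 0.404% to 1.02% in HFD-C replicates 5 and 6 and in all 24 libraries of running mice. HFD-C and running mice therefore differ in this share as well as in running. For the members, values that compare running mice with HFD-C replicates 5 and 6 alone are given below beside the main ones. Such values were kept for the members only. For any other gene, running and this share cannot be told apart here in a difference from HFD-C. Of 9 fast-fibre markers 8 were tested and Myh4 led them at a mean of 47900 CPM, while Mylpf stood at 0.798 CPM. Labels give no culture or litter, so p-values measure the spread between these mice.

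**Figure D1:**
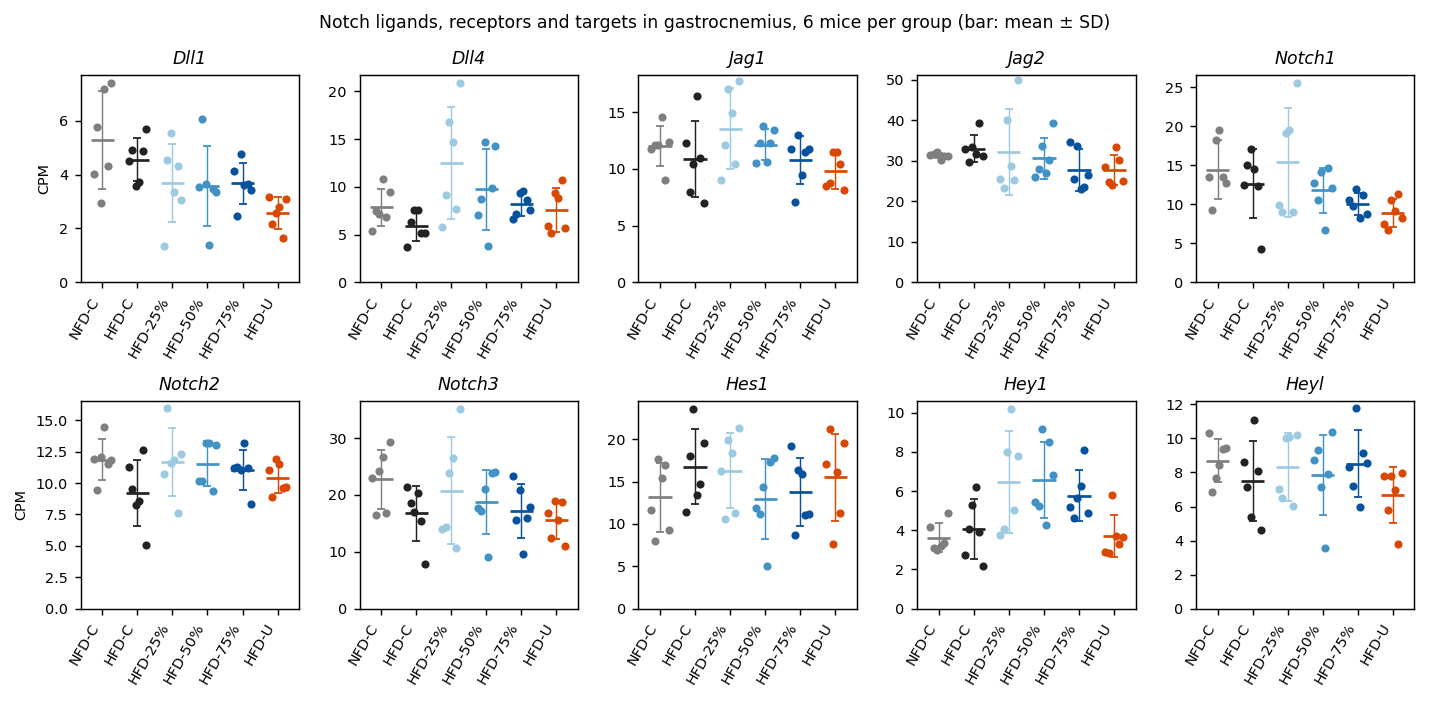
CPM (counts normalised to library size, linear axis from 0) of the 10 members in each of 36 mice by group, with the bar and whiskers giving mean ± SD. Dll4 reaches 20.9 CPM in HFD-25%, all 6 HFD-U mice lie below all HFD-C mice for Dll1, and spreads within HFD-25% are wide for Dll4, Notch1 and Notch3.

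Among the ligands, Dll4, the endothelial Delta-like ligand, differed most from HFD-C. It measured 3.71, 5.75 and 7.61 CPM (lowest, median and highest mouse) in HFD-C. In HFD-25% the values were 5.75, 11.9 and 20.9 CPM, and 5 of 6 mice lay above the highest HFD-C mouse. HFD-50% mice spread from 3.76 through 9.27 to 14.7 CPM, with 4 of 6 above that mouse. Groups overlapped in each of these comparisons, and the running groups included mice at HFD-C levels. In HFD-75% the levels were 6.65, 8.07 and 9.57 CPM, in HFD-U 5.14, 7.36 and 10.7 CPM, and in NFD-C 5.32, 7.31 and 10.8 CPM, each with 2 or 3 mice above the highest HFD-C mouse.

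By the quasi-likelihood F-test of edgeR, with p-values adjusted after Benjamini and Hochberg, the log2 fold change of Dll4 against HFD-C was 1.06 (SE 0.292, adjusted p = 0.389) in HFD-25%. It was 0.71 (SE 0.289, adjusted p = 0.40) in HFD-50% and 0.45 (SE 0.191, adjusted p = 0.858) in HFD-75%. In HFD-U it was 0.35 (SE 0.231, adjusted p = 0.983) and not called. Sedentary NFD-C mice had 0.41 (SE 0.216), also not called. HFD-U differed from HFD-75% by -0.10 (SE 0.194), likewise not called. Against HFD-C replicates 5 and 6 only, the differences were 1.27 (adjusted p = 0.378) for HFD-25%, 0.91 (adjusted p = 0.55) for HFD-50% and 0.64 (adjusted p = 0.49) for HFD-75%. The HFD-50% call was lost there, and also with the ribosomal-RNA-linked share as a covariate, at 0.71 (adjusted p = 0.524). With that covariate HFD-75%, at 0.58 (adjusted p = 0.594), was not called either. In 1 fit over all 36 mice HFD-75%, at 0.45 (SE 0.28, adjusted p = 0.997), was also not called. Of 12 fits that left out 1 mouse, the call held in 12 for HFD-25%, 9 for HFD-50% and 6 for HFD-75%. In whole muscle, more cells of a type and more RNA per cell cannot be told apart.

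Dll1, a ligand known to keep satellite cells undifferentiated, went the other way. Its levels were 3.57, 4.69 and 5.68 CPM in HFD-C and 1.65, 2.69 and 3.15 CPM in HFD-U. All 6 HFD-U mice lay below the lowest HFD-C mouse, the single case among the members and the 8 pairwise comparisons in which groups did not overlap. Over all genes tested 0.341% showed no overlap here, 0.352%, 0.784%, 0.264% and 0.229% when HFD-25%, HFD-50%, HFD-75% and NFD-C were set against HFD-C, and 0.176%, 0.844% and 0.448% when HFD-U was set against HFD-25%, HFD-50% and HFD-75%. The log2 fold change was -0.83 (SE 0.212, adjusted p = 0.415), and it was -1.06 (adjusted p = 0.293) against HFD-C replicates 5 and 6 alone. Restricted runners stood between, with medians of 3.83, 3.5 and 3.63 CPM in HFD-25%, HFD-50% and HFD-75%, and HFD-U was also lower than HFD-75% (log2 fold change -0.51, SE 0.214, adjusted p = 0.817). NFD-C mice covered 2.93 to 7.41 CPM and HFD-50% mice 1.39 to 6.07 CPM. Fibroadipogenic cell markers, the list with the highest r with Dll1 across mice (0.521), had summed levels of 333, 439 and 600 CPM in HFD-C and 296, 390 and 524 CPM in HFD-U (lowest, median and highest mouse). Of 6 such markers 1 was called lower in HFD-U, Dpt (-0.37, SE 0.158, adjusted p = 0.883), where 3.31% of all genes were called lower. The part of fibroadipogenic cells in the Dll1 difference was not tested.

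Jag2, a Jagged ligand, was the most abundant member in CPM and the one of smallest biological variation, 17.4% against 20.7% for the median gene. It measured 29.7, 32.2 and 39.4 CPM in HFD-C, 23.0, 25.9 and 34.7 CPM in HFD-75% and 24, 26.7 and 33.5 CPM in HFD-U. In both running groups 4 of 6 mice fell below the lowest HFD-C mouse and the ranges overlapped. The log2 fold change was -0.26 (SE 0.122, adjusted p = 0.911) in HFD-75% and -0.27 (SE 0.112, adjusted p = 0.854) in HFD-U. The HFD-75% call held in 3 of 12 fits that left out 1 mouse and was lost in DESeq2 (adjusted p = 0.843), and the HFD-U call held in 8 of 12. Without HFD-C replicate 5, the highest mouse, neither was called. Against HFD-C replicates 5 and 6 alone the HFD-75% difference was -0.37 (adjusted p = 0.564) and not called, while that of HFD-U, -0.38 (adjusted p = 0.40), was. Jag1, the second Jagged ligand, was not called against HFD-C in any group, and its HFD-C mice alone covered 7.03 to 16.4 CPM.

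Of the receptors, Notch1, which acts in endothelial and stem cells, had its lowest median in HFD-U. It measured 4.33, 13.5 and 17.1 CPM in HFD-C, 8.98, 14.6 and 25.6 CPM in HFD-25% and 6.75, 8.66 and 11.3 CPM in HFD-U. The HFD-25% mice fell into 3 from 8.98 to 9.96 CPM and 3 from 19.2 to 25.6 CPM. HFD-U was below HFD-25% by 0.79 on the log2 scale (-0.79, SE 0.261, adjusted p = 0.927) and below HFD-50% by 0.42 (-0.42, SE 0.187, adjusted p = 0.387). The call held in 12 of 12 fits that left out 1 mouse for HFD-25%, and in 4 of 12 for HFD-50%. For HFD-50% it was also lost with mice 2 to 6 only (-0.35, adjusted p = 0.501) and in 1 fit over all 36 mice (-0.42, adjusted p = 0.459). Against HFD-C the log2 fold change of HFD-U was -0.53 (SE 0.248, adjusted p = 0.916), which missed the threshold and was called in DESeq2 (-0.52, adjusted p = 0.808). That difference turned to 0.07 (adjusted p = 0.952) against HFD-C replicates 5 and 6 alone and to 0.02 (adjusted p = 0.99) with the ribosomal-RNA-linked share as a covariate. HFD-C replicate 6 held the lowest Notch1 of all 36 mice.

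Notch3, the mural cell receptor, was the member called between the sedentary groups. It measured 7.77, 17.8 and 21.4 CPM in HFD-C and 16.4, 23.6 and 29.4 CPM in NFD-C, and 4 of 6 NFD-C mice lay above the highest HFD-C mouse. The log2 fold change was 0.45 (SE 0.209, adjusted p = 1). With the ribosomal-RNA-linked share as a covariate it was 0.27 (adjusted p = 0.82) and not called, and in 1 fit over all 36 mice it was 0.44 (adjusted p = 0.993) and not called. The call was also lost with the replicate number as a block (0.46, adjusted p = 0.727). It held in 4 of 12 fits that left out 1 mouse. Notch2, another receptor of the family, was called in no pairwise comparison, and its group medians stayed between 9.06 CPM in HFD-C and 11.9 CPM in NFD-C.

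Among the targets, Hey1, a repressor induced by Notch in endothelium, had the smallest p of the members over running distance. Its levels were 2.16, 3.99 and 6.22 CPM in HFD-C and 3.01, 3.26 and 4.89 CPM in NFD-C. They were 3.73, 6.42 and 10.2 CPM in HFD-25% and 4.28, 6.13 and 9.16 CPM in HFD-50%. HFD-75% mice had 4.63, 5.39 and 8.10 CPM. In HFD-U they were 2.85, 3.48 and 5.79 CPM. All 6 mice of HFD-50% and of HFD-75% lay above the HFD-C median, whereas 1 of 6 HFD-U mice did, and ranges overlapped between every pair of groups.

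The log2 fold change of Hey1 against HFD-C was 0.65 (SE 0.298, adjusted p = 0.701) in HFD-25% and 0.68 (SE 0.27, adjusted p = 0.384) in HFD-50%. In HFD-75% it was 0.49 (SE 0.25, adjusted p = 0.936) and was not called. Against HFD-C replicates 5 and 6 alone the values were 1.06 (adjusted p = 0.411) and 1.09 (adjusted p = 0.45) in HFD-25% and HFD-50%, both called. HFD-C replicate 6 held the lowest Hey1 of any mouse, 2.16 CPM, against 3.93 CPM in replicate 5. How far differences from these replicates rest on replicate 6 was not tested. With the ribosomal-RNA-linked share as a covariate the HFD-25% and HFD-50% values were 0.92 (adjusted p = 0.397) and 0.82 (adjusted p = 0.432), and neither was called. HFD-75% was called in both, at 0.89 (adjusted p = 0.49) and 0.81 (adjusted p = 0.579). HFD-U was lower than HFD-25% (-0.80, SE 0.27), HFD-50% (-0.83, SE 0.234) and HFD-75% (-0.64, SE 0.209) on the same scale, with adjusted p-values of 0.927, 0.242 and 0.598. These 3 comparisons share the HFD-U mice, and each excludes HFD-C. The HFD-25% difference from HFD-C lost its call in 7 of 12 fits that left out 1 mouse, among them those without HFD-25% replicate 3, 4 or 6.

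Hes1, the general Notch target repressor, was called in no comparison. Its group medians lay between 13.1 CPM in HFD-50% and 17.4 CPM in HFD-25%, and its HFD-50% mice alone spread from 5.03 to 17.8 CPM. Heyl, a relative of Hey1 found in mural cells, was likewise not called, with medians from 7.38 CPM in HFD-U to 8.92 CPM in NFD-C. Whether Hey1 differed from the other targets was not tested.

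Counted over the members, 2 of 10 were called in HFD-25% against HFD-C, both higher, where 6.98% of all genes were called and 3.40% called higher. For HFD-50% it was 2 of 10, both higher, against 10.7% and 5.80%. HFD-75% had 2 of 10 against 5.47%, 1 higher and 1 lower. HFD-U had 2 of 10, both lower, against 5.46% and 3.31% called lower, and NFD-C had 1 of 10, higher, against 4.12% and 1.98% called higher. Each member is 10% of the list, and no test of the list as a whole was made. All 4 running groups together differed from HFD-C in Dll4 (log2 fold change 0.67, SE 0.254, adjusted p = 0.359) and Dll1 (-0.44, SE 0.212, adjusted p = 0.528), 2 of 10 against 9.27%. Neither was called against HFD-C replicates 5 and 6 alone, at 0.87 (adjusted p = 0.392) for Dll4 and -0.66 (adjusted p = 0.407) for Dll1, and with the share as a covariate Dll1 was not called (-0.55, adjusted p = 0.397). Median log2 fold changes of the members against HFD-C were 0.28 for HFD-25%, 0.11 for HFD-50%, 0.00 for HFD-75% and -0.16 for HFD-U. For sedentary NFD-C mice the median was 0.21, above that of HFD-50%, and those of all genes tested lay between -0.00908 and 0.0103. The 5 comparisons with HFD-C share its 6 mice.

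**Figure D2:**
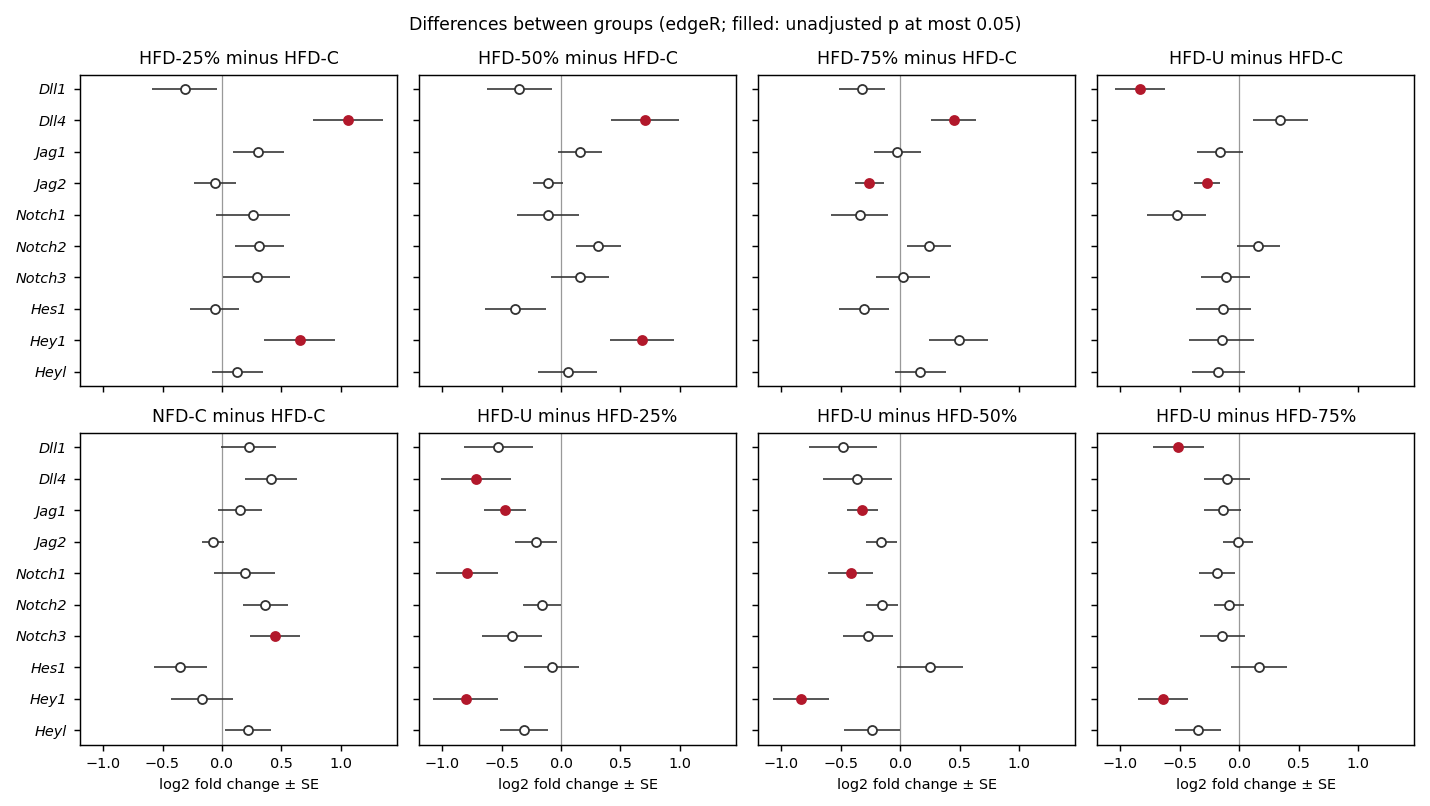
Log2 fold changes ± SE of the 10 members in 8 comparisons of 6 against 6 mice, each panel giving the first group minus the second. Filled points have an unadjusted p of at most 0.05, and HFD-U minus HFD-25% shows all 10 points left of 0.

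Between running groups, 4 of 10 members were lower in HFD-U than in HFD-25%, where 5.10% of all genes were called and 3.29% were called lower. They were Notch1, Hey1, Dll4 (-0.72, SE 0.297, adjusted p = 0.927) and Jag1 (-0.47, SE 0.177, adjusted p = 0.927). Jag1 measured 9.07, 13.5 and 17.8 CPM in HFD-25% against 8.15, 9.55 and 11.5 CPM in HFD-U. All 10 fitted differences were negative, with a median of -0.44 against 0.00198 for all genes tested. The same HFD-25% replicates 3, 4 and 6 were the 3 highest mice of their group for Dll4, Jag1, Jag2, Notch1, Notch3, Hes1, Hey1 and Heyl. Against HFD-50%, Jag1 (-0.32, adjusted p = 0.357), Notch1 and Hey1 were lower in HFD-U, 3 of 10 against a background of 12.4% called and 7.08% called lower. These calls held in 6, 4 and 12 of 12 fits that left out 1 mouse. Against HFD-75% Dll1 and Hey1 were lower, 2 of 10 against 5.57% and 2.69%.

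Over all 6 groups the test of any difference called Dll1 (adjusted p = 0.235), Dll4 (adjusted p = 0.223), Notch1 (adjusted p = 0.324) and Hey1 (adjusted p = 0.0684), 4 of 10 members against 12.2% of all genes. Over the other fits, that with endothelial markers (given below) apart, the adjusted p of Hey1 ran from 0.00918 in DESeq2 to 0.193 with the ribosomal-RNA-linked share as a covariate, where Dll1 was not called (adjusted p = 0.435). A linear and a quadratic term of running distance, fitted over HFD-C and the runners, called the same 4 members against a background of 12.2%. With HFD-C replicates 5 and 6 as the only sedentary mice, Dll4 (adjusted p = 0.529) and Dll1 (adjusted p = 0.464) were not called, nor were they with the share as a covariate (adjusted p = 0.429 and 0.406), while Hey1 and Notch1 were called in both. For Hey1 the linear coefficient was 3.020 and the quadratic -3.208 on the log2 scale with distance as a fraction of that of HFD-U (adjusted p = 0.0796), and the fitted curve peaked at 47.1% of that distance. The curve of Dll4 peaked at 50.0% (2.603 and -2.601, adjusted p = 0.366). That position belongs to the fitted curve, since the highest mean level of Dll4 was 12.5 CPM, found in HFD-25%. Mean levels were 9.72 CPM for HFD-50%, 8.15 CPM for HFD-75% and 7.59 CPM for HFD-U. Fitted over running mice alone, both terms called Dll4, Notch1, Hey1 and Jag1 but not Dll1 (adjusted p = 0.726), among 1013 of 11935 genes. A linear term alone, over HFD-C and the runners, called Dll1 (-0.66), Notch1 (-0.68) and Jag2 (-0.30), among 474 of 12006 genes. Hey1 (-0.19, SE 0.301) and Dll4 (-0.08, SE 0.323) were not called by it.

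Ordering the groups by mean log2 CPM gave different orders for the members. Dll4 rose from HFD-C over HFD-U, NFD-C, HFD-75% and HFD-50% to HFD-25%, Hey1 from NFD-C over HFD-U, HFD-C, HFD-75% and HFD-25% to HFD-50%, and Dll1 from HFD-U over HFD-50%, HFD-25%, HFD-75% and HFD-C to NFD-C. None of the 50 pairs of neighbouring groups differed at 0.05 in an exact two-sided permutation test. The order was read from the same values and neighbours are the closest groups in it. These tests therefore describe the order and cannot decide whether groups further apart differ. The smallest p was 0.0563, for Hey1 between HFD-C and HFD-75% (adjusted over the pairs 0.996), where 924 permutations allow 0.00216 at best.

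Markers of endothelial cells moved with several of these differences. Their summed level over 12 genes was 237, 314 and 441 CPM in HFD-C and 245, 320 and 392 CPM in NFD-C (lowest, median and highest mouse). HFD-25% mice had 282, 453 and 843 CPM and HFD-50% mice 297, 406 and 621 CPM. Those of HFD-75% had 311, 365 and 542 CPM and those of HFD-U 236, 339 and 502 CPM. In HFD-25% the level was 282, 296 and 314 CPM in replicates 1, 2 and 5 but 608, 592 and 843 CPM in replicates 3, 4 and 6. Replicates 3, 4 and 6 were also the highest of that group for Dll4, Notch1 and Hey1. Of the 12 markers, edgeR's test called 6 higher in HFD-25% than in HFD-C, 6 for HFD-50%, 3 for HFD-75% and 0 for HFD-U. Shares of all genes called in either direction were 6.98%, 10.7%, 5.47% and 5.46% in these comparisons. All 12 markers were detected in every library. Flt1, a VEGF receptor and the most abundant of them at a mean of 77.5 CPM, was 0.92 higher on the log2 scale in HFD-25% (SE 0.265, adjusted p = 0.423). The 6 in HFD-25% were Flt1, Cdh5, Egfl7, Tie1, Esam and Cldn5, and in HFD-50% Vwf took the place of Cdh5. HFD-U was lower than HFD-25% for 3 of 12, Flt1, Egfl7 and Cldn5, where 3.29% of all genes were called lower.

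With the mean log2 level of these markers as a covariate, an alternative chosen after seeing the data, the Dll4 difference from HFD-C became 0.50 (adjusted p = 0.507), still called, in HFD-25%. It was 0.02 (adjusted p = 0.99) for HFD-50% and 0.33 (adjusted p = 0.863) for HFD-75%, neither called. That of Hey1 became 0.22 in both groups (adjusted p = 0.942 and adjusted p = 0.779) and was called in neither. The Dll1 difference in HFD-U was -0.82 (adjusted p = 0.339), still called and near its value without the covariate. Notch1 in HFD-U against HFD-25% went from -0.79 to -0.32 (adjusted p = 0.999), still called, whereas Dll4 (-0.21), Jag1 (-0.22) and Hey1 (-0.44) in that comparison were not. In the test over all 6 groups its adjusted p became 0.0336, while Dll4 (adjusted p = 0.543) and Hey1 (adjusted p = 0.39) were no longer called. Hey1 in HFD-U was still called against HFD-50% (-0.52, adjusted p = 0.367) and HFD-75% (-0.56, adjusted p = 0.677). Marker and member levels come from the same libraries, so the covariate removes any difference they share, of whatever source.

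**Figure D3:**
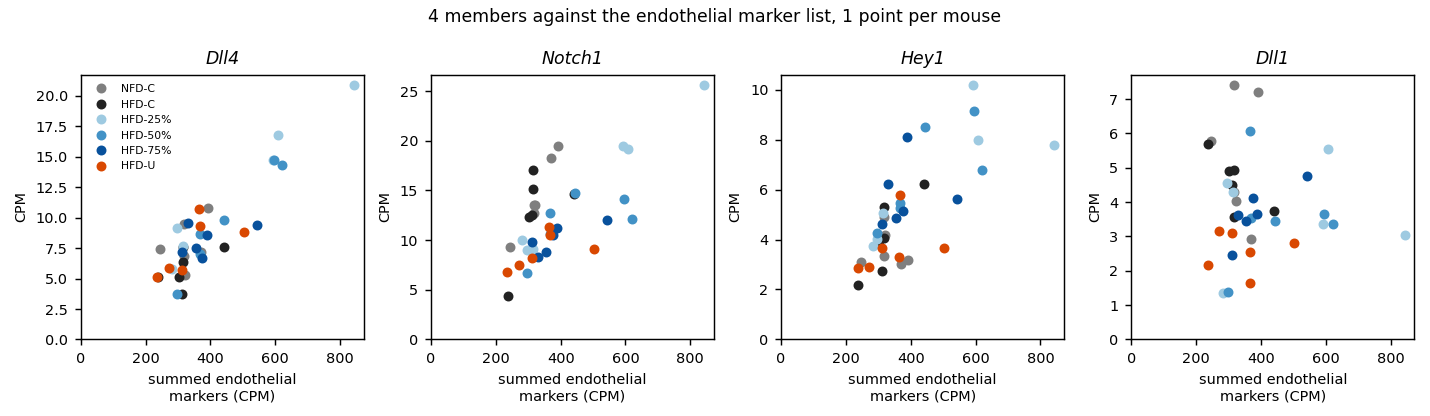
CPM of Dll4, Notch1, Hey1 and Dll1 (vertical axes, linear from 0) against the summed CPM of 12 endothelial markers (horizontal axes, linear from 0), 1 point per mouse and coloured by group. Dll4 climbs with the marker sum up to 20.9 CPM at 843 CPM, while Dll1 shows no such slope.

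Across the 36 mice, members varied together around their group means. Pearson's r of the deviations of log2 CPM was positive for 43 of 45 pairs of members and over 0.5 for 16, from -0.109 for Notch2 and Hes1 to 0.838 for Notch1 and Notch3. These values describe the mice and carry no test, since all genes of a mouse share 1 library and its scaling. Dll4 had r = 0.811 with the endothelial marker level, Jag1 0.772, Notch1 0.752, Notch3 0.715 and Jag2 0.705. Lower values were found for Hes1 (0.388), Notch2 (0.292) and Dll1 (0.231). With fibroadipogenic markers r was 0.521 for Dll1, 0.506 for Heyl and 0.501 for Hes1. With mural cell markers, Notch1 (0.76) and Jag1 (0.75) had the highest r, and with satellite cell markers no member exceeded 0.371, the value of Notch3.

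**Figure D4:**
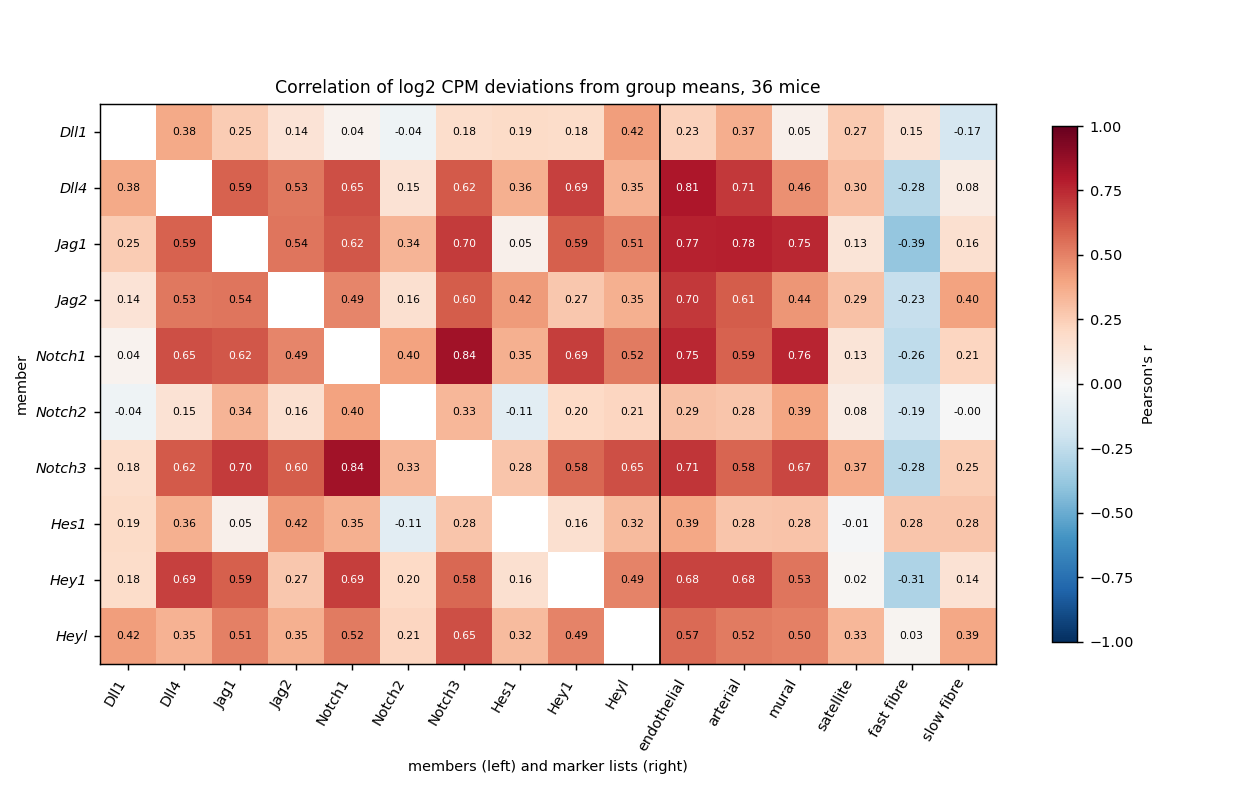
Pearson's r of log2 CPM deviations from group means over 36 mice, for each pair of the 10 members (left of the line) and for each member with 6 marker lists (right of the line). Notch1 and Notch3 share the highest value among members, 0.838, and the Dll1, Notch2 and Hes1 rows are pale.

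Among all tested genes, those varying most like Dll4 were Pxdn (r = 0.848), Ablim3 (0.845) and Septin4 (0.843). For Notch1 they included Arhgap31 (0.869) and Ptprb (0.863), a phosphatase of endothelial cells. Jag1 was nearest to Pecam1 (0.787), which encodes an endothelial adhesion molecule, Sptbn1 (0.78) and Sptan1 (0.762), and Jag2 to Tie1 (0.808), an endothelial receptor kinase, Tcf15 (0.806) and Dock1 (0.792). Notch3 followed Pcdh1 (0.844), Tanc1 (0.815) and Pdgfrb (0.813), the pericyte growth factor receptor.

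Hey1 was nearest to Sh3tc1 (0.765), Pdgfrb (0.748) and Trim21 (0.727), and Heyl to Mecom (0.79), S1pr3 (0.70) and Fads2 (0.695). The genes nearest to Hes1 were Trim7 (0.758), Foxo6 (0.717) and Gbp5 (0.702), and those nearest to Notch2 were Sh3d19 (0.721), Nhsl2 (0.662) and Ston1 (0.641). Dll1 had the lowest leading value of the members, with Mbd4 (0.656), Dtx4 (0.63), a Deltex regulator of Notch, and Glipr2 (0.615).

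Of 53 other genes of the pathway, 44 passed the minimum in HFD-25% against HFD-C, where 5 were called, 2 higher and 3 lower, against a background of 6.98%. In HFD-50% 0 were higher and 3 lower of 43, against 10.7% of all genes called. In HFD-75% it was 0 higher and 2 lower of 44, against 5.47%. In HFD-U it was 1 higher and 4 lower of 44, against 5.46%, and in NFD-C 1 higher and 0 lower of 44, against 4.12%. Fbxw7, the ubiquitin ligase subunit that targets the Notch intracellular domain for degradation, was lower in the restricted runners, most in HFD-50% (-0.44, SE 0.148, adjusted p = 0.285). Over running distance its adjusted p was 0.0255. These comparisons share the HFD-C mice, and for these genes running was not separated from the ribosomal-RNA-linked share.

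Nrarp, a Notch target and feedback inhibitor, had mean levels of 4.96 ± 0.867 CPM in HFD-C and 3.88 ± 1.40 in HFD-U (SD, n = 6 each). Restricted runners had 7.69 ± 3.74 (HFD-25%), 6.90 ± 3.31 (HFD-50%) and 6.15 ± 1.23 CPM (HFD-75%). Among these 5 high-fat groups the means of HFD-25% and HFD-50% were highest and that of HFD-U lowest, as for Hey1. It was higher in HFD-25% than in HFD-C (0.62, SE 0.271, adjusted p = 0.69) and lower in HFD-U than in HFD-25% (-0.99, SE 0.316, adjusted p = 0.927). Notch4, the endothelial receptor outside the 10 members, measured 18.0 ± 5.50 CPM in HFD-C, 26.2 ± 12.0 in HFD-25% and 17.1 ± 6.51 in HFD-U and was not called in any comparison. Rbpj was called in 1 pairwise comparison, higher in HFD-U than in HFD-75% (0.30, SE 0.127, adjusted p = 0.829).

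Other genes named by the same rule were Psen2 (-0.41, adjusted p = 0.685), a catalytic subunit of gamma-secretase, in HFD-25%, and Pofut1 (-0.27, adjusted p = 0.446), which adds O-fucose to Notch receptors, in HFD-50%. In all running mice together it was Itch (0.23, adjusted p = 0.48), a ubiquitin ligase. In HFD-U they were Crebbp (-0.31, adjusted p = 0.767), a coactivator acetyltransferase, and Dtx2 (-0.41, adjusted p = 0.842), a Deltex ubiquitin ligase, and in NFD-C Crebbp was higher (0.24, adjusted p = 1), all as log2 fold changes against HFD-C. Over all 6 groups 8 of 44 were called, and those that passed the adjusted threshold included Eogt (adjusted p = 0.0314), which adds O-GlcNAc to Notch, and Crebbp (adjusted p = 0.0362), with Eogt named here after its values were seen, against 12.2% and 1.45% of all genes.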

How the data were processed

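Gastrocnemius RNA of 36 mice was sequenced as poly(A)-selected paired-end libraries. The labels name HISAT2 2.0.5 and featureCounts 1.5.0-p3 and the build mm10, while chromosome accessions in the table are those of GRCm39. The authors deposited raw counts per gene. CPM values were computed here with edgeR 4.0.16 (TMM scaling, R 4.3.3). Each comparison was fitted on its own groups with edgeR's quasi-likelihood test, after removing genes with a mean count below 25, with Benjamini-Hochberg adjustment over all genes tested. A standard error is the absolute log2 fold change over the square root of F. Neighbouring groups were compared by exact permutation. DESeq2 1.42.0, other scalings and filters, covariates, leaving out each mouse and a replicate block were alternatives. Scripts were tested on simulated data. Total counts of 13060090 to 27981702 limit precision for low genes.

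The members, other Notch genes and marker lists were chosen with earlier results of these data known. All 10 members are named. Of the other Notch genes, the 3 with the smallest p of at most 0.05 in each comparison with HFD-C are named, plus Notch4, Rbpj and Nrarp. For each member the 3 genes of highest r over 36 mice are named. Some genes that meet these rules are not reported here. Of the marker lists, the most abundant marker and those called in the comparison described are named for some lists only. Deviations from group means in samples of the same replicate number had r over 0.1 in all 6 pairs of HFD-U and HFD-C (0.123 to 0.504). Elsewhere this was so in 1 to 5 of 6 pairs. Samples with different numbers were not compared, so these values cannot show whether the numbers pair the mice. The block changed no pairwise call of HFD-U against HFD-C. No 2 libraries of a group differed by as little as sampling noise.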

Additional observations from a re-analysis of the deposited data

Results flagged for a closer look

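Of 60 sets of 6 mice, 1 for each member and group, 2 held a mouse far from the other 5 by Dixon's test, where chance alone flags about 1 in 20. Hey1 in HFD-U replicate 3 was 5.79 CPM, against 2.85 to 3.68 CPM in the other 5 mice of that group. Without this mouse the adjusted p of Hey1 was 0.0385 over the 6 groups and 0.0444 over running distance. It was likewise below 0.05 over the 6 groups without HFD-C replicate 4 (0.035) or HFD-25% replicate 1 (0.0372) or 2 (0.0464), and over distance without the first (0.0439) or the second of these (0.0481). Jag2 in HFD-C replicate 5 was 39.4 CPM, against 29.7 to 33.3 CPM in the other 5, and the Jag2 differences of HFD-75% and HFD-U from HFD-C were not called without it. The HFD-75% call held in 3 and the HFD-U call in 8 of 12 fits that left out 1 mouse.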

How the results depend on the processing

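No called member changed direction under any alternative. At the unadjusted threshold, counts of called members moved by over 1.5 times as follows. HFD-50% against HFD-C went from 2 to 0 with the ribosomal-RNA-linked share as a covariate and to 1 with low-share libraries alone. HFD-75% went from 2 to 1 with DESeq2 or RLE size factors and to 0 in 1 fit over all 36 mice. NFD-C went from 1 to 0 with the share covariate. HFD-U against HFD-50% and HFD-75% went to 1 in the fit over all mice. All running mice went to 1 with low-share libraries, Hey1 in place of Dll4 and Dll1, and running distance went from 4 to 2 with the share covariate. With the share covariate, calls over all genes went from 1296 to 1409 for HFD-50%, 504 to 864 for NFD-C and 1468 to 1573 over distance. With low-share libraries they went from 1296 to 1122 for HFD-50% and from 1113 to 1603 for all running mice. For HFD-75% 663 became 725 with DESeq2, 663 with RLE and 675 in the fit over all mice. In that fit HFD-U had 1748 against HFD-50% (1472 in the main fit) and 490 against HFD-75% (659 in the main fit). The endothelial covariate, added after seeing the data, gave 1 for HFD-50% against HFD-C, Hes1 (-0.73, adjusted p = 0.399), which was not among the 2, and 1 for HFD-U against each restricted group. Over all genes it called 1424 for HFD-50% against HFD-C, and 506, 1494 and 751 for HFD-U against HFD-25%, HFD-50% and HFD-75%. The main fits called 1296, 609, 1472 and 659. Adjusted counts rose from 0 to 1 over the 6 groups with DESeq2, the replicate block and the endothelial covariate, and over distance with DESeq2 and the replicate block. The gene was Hey1, except Notch1 with the endothelial covariate. More genes of any kind passed in these settings. Over the 6 groups 175 of 12053 passed in the main fit, 445 with DESeq2, 527 with the block and 215 with the endothelial covariate. Over distance 82 of 12006 passed in the main fit, 246 with DESeq2 and 256 with the block. The replicate block moved no other count by over 1.5 times, but for NFD-C it called Dll4 (0.42, adjusted p = 0.688) and not Notch3 (0.46, adjusted p = 0.727), and over distance Jag1 and not Dll1. With 1 mouse left out, unadjusted counts ranged from 1 to 3 for HFD-25%, 0 to 3 for HFD-50%, 0 to 2 for HFD-75%, 1 to 3 for HFD-U, 0 to 2 for NFD-C and 1 to 3 for all running mice against HFD-C, from 2 to 5, 1 to 6 and 1 to 3 for HFD-U against HFD-25%, HFD-50% and HFD-75%, and from 2 to 5 over the 6 groups and over distance. Adjusted counts then ranged from 0 to 1 over the 6 groups and over distance and stayed at 0 elsewhere. Of 28 called differences, 166 of 201 planned values without a left-out mouse kept their call and 35 lost it, as did 100 of 540 with 1 left out. Causes were not tested. Low counts of Dll1 and Hey1 limit precision.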

Other observations

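Markers of other cell types were summarised for the same comparisons, at an unadjusted p of at most 0.05 in edgeR's test, with no test of a list as a whole. Arterial markers were called higher in HFD-25% than in HFD-C for 2 of 4 tested genes, Efnb2 (0.88 on the log2 scale, SE 0.296, adjusted p = 0.515) and Gja4 (0.81, SE 0.284, adjusted p = 0.547). In that comparison 6.98% of all genes were called and 3.40% called higher. The summed arterial level in HFD-25% was 19.4, 24.7 and 26.2 CPM in replicates 1, 2 and 5 but 48, 47.4 and 58.8 CPM in replicates 3, 4 and 6. Sox17, the most abundant arterial marker, had a mean of 14.3 CPM. Mural cell markers were called higher for 1 of 7 in HFD-25%, 1 of 7 in HFD-50% and 0 of 7 in HFD-75% and in HFD-U. When HFD-50% was set against HFD-C, 10.7% of all genes were called and 5.80% called higher. The shares called in either direction were 5.47% for HFD-75% and 5.46% for HFD-U. Satellite cell markers, the cells in which Dll1 and Notch receptors are known to act, were called higher for 1 of 4 in HFD-75% and for 0 of 4 in the other running groups. Cdh15 was the most abundant of them at a mean of 20.4 CPM, and Pax7 had a mean of 2.21 CPM.

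Slow-fibre genes varied more than any member. Their summed level ran from 92.1 to 1570 CPM over the 6 HFD-U mice and from 449 to 3270 CPM over those of HFD-50%. In HFD-U against HFD-50%, where 12.4% of all genes were called and 7.08% called lower, 5 of 6 slow-fibre genes were called lower. Among them were Myh7, the slow myosin heavy chain (-1.99, SE 0.54, adjusted p = 0.239), and Tnni1, slow troponin I (-2.09, SE 0.602, adjusted p = 0.247). Their r with the members over 36 mice lay between -0.167 for Dll1 and 0.40 for Jag2. Adipocyte markers were called lower in HFD-U than in HFD-C for 2 of 3 tested, and macrophage markers for 1 of 4. Of all genes 5.46% were called there and 3.31% called lower. The summed adipocyte level had a higher median in HFD-U, 7.33 CPM, than in HFD-C, 5.71 CPM. HFD-C replicate 6 stood at 60.7 CPM, against 2.2 to 13.9 CPM in the other mice of that group. How far these adipocyte calls rest on that mouse was not tested. Fibroadipogenic markers were called lower than in HFD-C for 2 of 6 genes in both HFD-25% and HFD-75%, and for 1 of 6 in both HFD-50% and HFD-U. In the same order, the shares of all genes called in either direction were 6.98%, 5.47%, 10.7% and 5.46%. Dcn was the most abundant fibroadipogenic marker at a mean of 236 CPM. Col1a1, a fibrillar collagen gene, was called lower in the 3 restricted groups (-0.81, SE 0.241, adjusted p = 0.427 in HFD-25%).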
